A study of Homo sapiens with 12 samples.

Results

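RNA-seq was used to follow 9 transcription factors of the ATF and CEBP families, ATF3, ATF4, ATF5, DDIT3 (CHOP), CEBPA, CEBPB, CEBPD, CEBPG and JDP2, in human motor neuron cultures exposed to the organochlorine pesticide cis-chlordane. The 9 genes were chosen by name from the 28278 gene symbols of the count table, and each passed the filter on low counts in every comparison. Cultures of WA09-Islet1-GFP, a wild-type human embryonic stem cell line in which GFP marks cells that express the motor neuron transcription factor Islet1, were differentiated, replated, given cis-chlordane or a matching volume of its solvent DMSO for 16 hours, and sorted by FACS. The 4 groups were control GFP-positive, treated GFP-positive, control GFP-negative and treated GFP-negative cells, with 3 libraries each that the labels call biological replicates, a term the study uses for separate thaws of stored cells. The sample labels give the dose as 10 µM and the study's methods give 16 µM. All libraries came from a single cell line, and GFP-positive cells are those in which Islet1 was active, so they need not all be motor neurons.

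ATF and CEBP factors are basic leucine zipper proteins, which bind DNA as pairs whose partners set the sequence they read. In the integrated stress response, kinases that sense endoplasmic reticulum (ER) stress, amino acid shortage, heme shortage or double-stranded RNA phosphorylate the translation initiation factor eIF2alpha. General protein synthesis then slows, while the mRNAs of ATF4, ATF5 and CHOP, which carry short upstream reading frames, are translated better. ATF4 turns on genes of amino acid uptake and synthesis, and also CHOP, ATF3 and the pseudokinase TRIB3. CHOP is known for its part in cell death under lasting ER stress, and the protein level of these factors depends on translation and turnover that RNA-seq does not see.

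Each library held between 23414935 and 38347050 counts assigned to genes, with a median of 31553596. ISL1, the gene whose activity the GFP reports, was at 62.6 to 68.9 CPM, counts per 1000000 scaled counts of a library, in control GFP-positive and 2.41 to 2.77 CPM in control GFP-negative libraries, and 7 of 9 motor neuron markers were higher in the control GFP-positive cells, where 7.47% of all genes were. LHX3 was lower there, at 1.92 ± 0.428 CPM against 4.43 ± 1.10 CPM in control GFP-negative cells (SD, n = 3). After cis-chlordane ISL1 stood at 8.02 to 15.4 CPM in GFP-positive and 0.387 to 0.692 CPM in GFP-negative cells. In treated GFP-positive cells 6 of 9 motor neuron markers were lower than in control, where 11.2% of all genes were. Replicate 3 of the control GFP-negative libraries stood apart in blood cell genes. Its 8 myeloid markers summed to 151.5 CPM, with SPI1 at 38.12, PTPRC at 28.1 and LYZ at 42.3 CPM, while the lowest sum among the control GFP-negative libraries was 2.50 CPM and AIF1 was at 0 in all 12 libraries. These are bulk samples, in which fewer cells of a type cannot be told apart from less RNA per cell.

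The genes lie on 7 chromosomes by GENCODE 44 on hg38, ATF3 at chr1:212565334-212620777, DDIT3 at chr12:57516588-57521737, JDP2 at chr14:75427716-75474111, CEBPB at chr20:50190830-50192668 and ATF4 at chr22:39519695-39522683. CEBPA (chr19:33299934-33302534, minus strand) and CEBPG (chr19:33373685-33382686, plus strand) are near each other on chromosome 19, which also holds ATF5 at chr19:49928702-49933935. CEBPA, CEBPB and CEBPD each consist of a single exon.

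The promoter sequences of the 4 factors that rose at least 8-fold in GFP-positive cells are shown for their response elements, from RefSeq on GRCh38.p14, each from 250 bases before to 50 after 1 RefSeq start, which can differ from the start in GENCODE, and read 5′ to 3′ on the strand of the gene. Capitals mark matches on either strand to 5 motifs. These are CARE (TGATGNAA, the C/EBP-ATF composite element that ATF4 reads), the cyclic AMP response element (TGACGTCA), the AP-1 element (TGANTCA), the C/EBP site (TTGCNNAA) and the ER stress response element (ERSE, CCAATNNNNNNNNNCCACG, with at most 1 mismatch in its last 5 letters). ATF3 lies at chr1:212565157-212565456 (plus strand), DDIT3 at chr12:57520465-57520764 (minus), CEBPB at chr20:50190333-50190632 (plus) and ATF5 at chr19:49928656-49928955 (plus).
ATF3: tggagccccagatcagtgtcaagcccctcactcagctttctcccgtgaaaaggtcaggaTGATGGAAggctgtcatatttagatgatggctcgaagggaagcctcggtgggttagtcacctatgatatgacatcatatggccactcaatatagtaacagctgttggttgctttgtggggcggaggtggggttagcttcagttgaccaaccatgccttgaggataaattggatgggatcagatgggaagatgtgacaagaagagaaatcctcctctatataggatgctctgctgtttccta
DDIT3: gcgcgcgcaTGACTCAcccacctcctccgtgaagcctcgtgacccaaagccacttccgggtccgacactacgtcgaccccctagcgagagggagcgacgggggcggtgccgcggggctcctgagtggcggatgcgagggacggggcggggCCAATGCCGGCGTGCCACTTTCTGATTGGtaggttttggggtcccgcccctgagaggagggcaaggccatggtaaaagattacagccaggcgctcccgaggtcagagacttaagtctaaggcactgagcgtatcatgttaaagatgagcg
CEBPB: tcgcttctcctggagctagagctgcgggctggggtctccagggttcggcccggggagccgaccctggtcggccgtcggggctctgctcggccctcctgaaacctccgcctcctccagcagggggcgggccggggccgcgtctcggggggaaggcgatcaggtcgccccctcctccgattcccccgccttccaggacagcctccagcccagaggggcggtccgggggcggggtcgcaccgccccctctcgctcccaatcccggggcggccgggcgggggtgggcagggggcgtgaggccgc
ATF5: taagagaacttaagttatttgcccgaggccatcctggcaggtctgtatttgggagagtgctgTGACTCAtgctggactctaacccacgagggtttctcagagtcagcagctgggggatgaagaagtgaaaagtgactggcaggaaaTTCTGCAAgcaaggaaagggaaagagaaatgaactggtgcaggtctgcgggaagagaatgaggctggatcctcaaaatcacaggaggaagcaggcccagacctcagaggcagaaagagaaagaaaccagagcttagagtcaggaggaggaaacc
The ATF3 window held a CARE, TGATGGAA, which began at position -191 from the start, and 3.67% of the 27305 promoters of the same length in the reference held that motif. This window lies at the upstream end of the ATF3 gene model, chr1:212565334-212620777, and any start farther inside the gene was not searched. The DDIT3 window held a pair of ERSE matches on opposite strands, at positions -100 and -90, which overlap each other and share their ends with CCAAT boxes; an ERSE was found in 1.11% of promoters. DDIT3 also held an AP-1 match at -241, and ATF5 held an AP-1 match at -188 and a C/EBP site at -104, against 7.76% and 10.6% of all promoters. The CEBPB window held none of the 5 motifs, and the cyclic AMP response element, in 1.98% of promoters, was in none of the 4 windows. Sequence outside the windows was not searched, and the CEBPB window ends before the GENCODE start of that gene, chr20:50190830. Absence of a motif here therefore does not extend to the rest of a promoter or to other starts. A match is a string of letters, and binding was not measured.

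The first comparison asked which of the factors changed in GFP-positive cells after cis-chlordane. ATF3, DDIT3, CEBPB, ATF5, ATF4, CEBPG and JDP2 rose, 7 of the 9, by between 23.3-fold for ATF3 and 2.15-fold for JDP2. Of all 15333 genes tested, 12.8% were called higher and 11.2% lower, where a call needed at least a 2-fold change and, in edgeR's quasi-likelihood test, an adjusted p under 0.05. In 8 of the 9 every treated library lay outside the range of the controls, which held for 57.5% of all genes. The median log2 fold change of the 9 was 1.87, beside 0.03 over all genes tested.

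ATF4, the factor that the eIF2alpha pathway acts on through translation, had the most abundant transcript of the 9 per kilobase of exon, at 153 ± 20.2 CPM per kilobase in control GFP-positive cells (SD, n = 3). Its level in those libraries was 457.5, 390.5 and 353 CPM, and in treated GFP-positive libraries 1338, 1294 and 1553 CPM. Every treated library was thus above every control, and ATF4 mRNA rose by a log2 fold change of 1.87 ± 0.17 (SE; edgeR adjusted p = 1.4e-11). ATF5, a paralog of ATF4 linked to the mitochondrial unfolded protein response, rose further. It was at 46.1, 61.7 and 42.3 CPM in control and 403, 423 and 383 CPM in treated GFP-positive libraries, a log2 fold change of 3.08 ± 0.18 (edgeR adjusted p = 1.8e-16). The treated libraries lay within a narrow range for ATF5, with an SD of 20.2 CPM around 403. ATF5 shares 565 exon bases with NUP62 on the other strand, where the change was negative (-0.59 on the log2 scale).

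DDIT3, which encodes CHOP, was at 21.0, 15.6 and 14.7 CPM in control and 201, 142 and 256 CPM in treated GFP-positive libraries. The treated libraries differed among themselves by more than those of ATF5, and the lowest of them was still far above the highest control. Its log2 fold change was 3.62 ± 0.21 (edgeR adjusted p = 1.7e-16). The exons of DDIT3 overlap those of MARS1, a methionyl-tRNA synthetase gene on the other strand, over 355 bases, and MARS1 rose by 1.09 on the log2 scale. The library kit keeps strand, but whether the counting used it is not given in the sources used here, so reads in the overlap may belong to either gene.

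ATF3, an early stress gene that can repress as well as activate, changed most of the 9 and ranked 55 among the 15333 genes ordered from the largest rise. It was at 15.4, 19.1 and 16.2 CPM in control libraries and at 396, 319 and 408 CPM in treated ones. The log2 fold change was 4.54 ± 0.19 (edgeR adjusted p = 4.5e-20), and DDIT3, CEBPB and ATF5 followed at ranks 117, 135 and 190. JDP2, a relative of ATF3 that represses transcription at AP-1 sites, changed least of those called. Its levels were 22.6, 21.2 and 17.9 CPM in control and 43.96, 43.0 and 39.5 CPM in treated GFP-positive libraries, a log2 fold change of 1.11 ± 0.18 (edgeR adjusted p = 4.1e-06), just past the 2-fold limit.

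Among the CEBP genes, CEBPB and CEBPG rose and the other two were not called. CEBPB, a factor of inflammation and metabolism that pairs with CHOP and ATF4, was at 7.83, 8.83 and 7.68 CPM in control and 95.7, 67.2 and 97.8 CPM in treated GFP-positive libraries (log2 fold change 3.49 ± 0.20; edgeR adjusted p = 1.7e-16). CEBPG, a short family member without an activation domain that pairs with ATF4, was at 65.4, 49.3 and 61.1 CPM in control and 199, 192 and 215 CPM in treated libraries (1.86 ± 0.17; edgeR adjusted p = 2e-11). CEBPB therefore began at the lower level per kilobase and had the larger fold change. CEBPA, a factor of liver, fat and myeloid differentiation, was at 2.05, 3.52 and 2.73 CPM in control and 3.84, 5.74 and 3.58 CPM in treated libraries. The CEBPA groups did not overlap, and the edgeR adjusted p was 0.030, but the fold change of 1.66 was under the limit; with the trend with GC content removed it was 1.19 on the log2 scale (adjusted p = 0.0014) and past it. CEBPD, an acute-phase factor, had the lowest level of the factors, at 0.373, 1.07 and 0.418 CPM in control and 0.781, 0.919 and 0.632 CPM in treated GFP-positive libraries. These levels rest on only 10 to 37 counts a library, and the log2 fold change was 0.37 (95% confidence interval -0.55 to 1.29). Without the second control GFP-positive library, which holds the 37 counts, that value was 1.03 (adjusted p = 0.13).

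**Figure D1:**
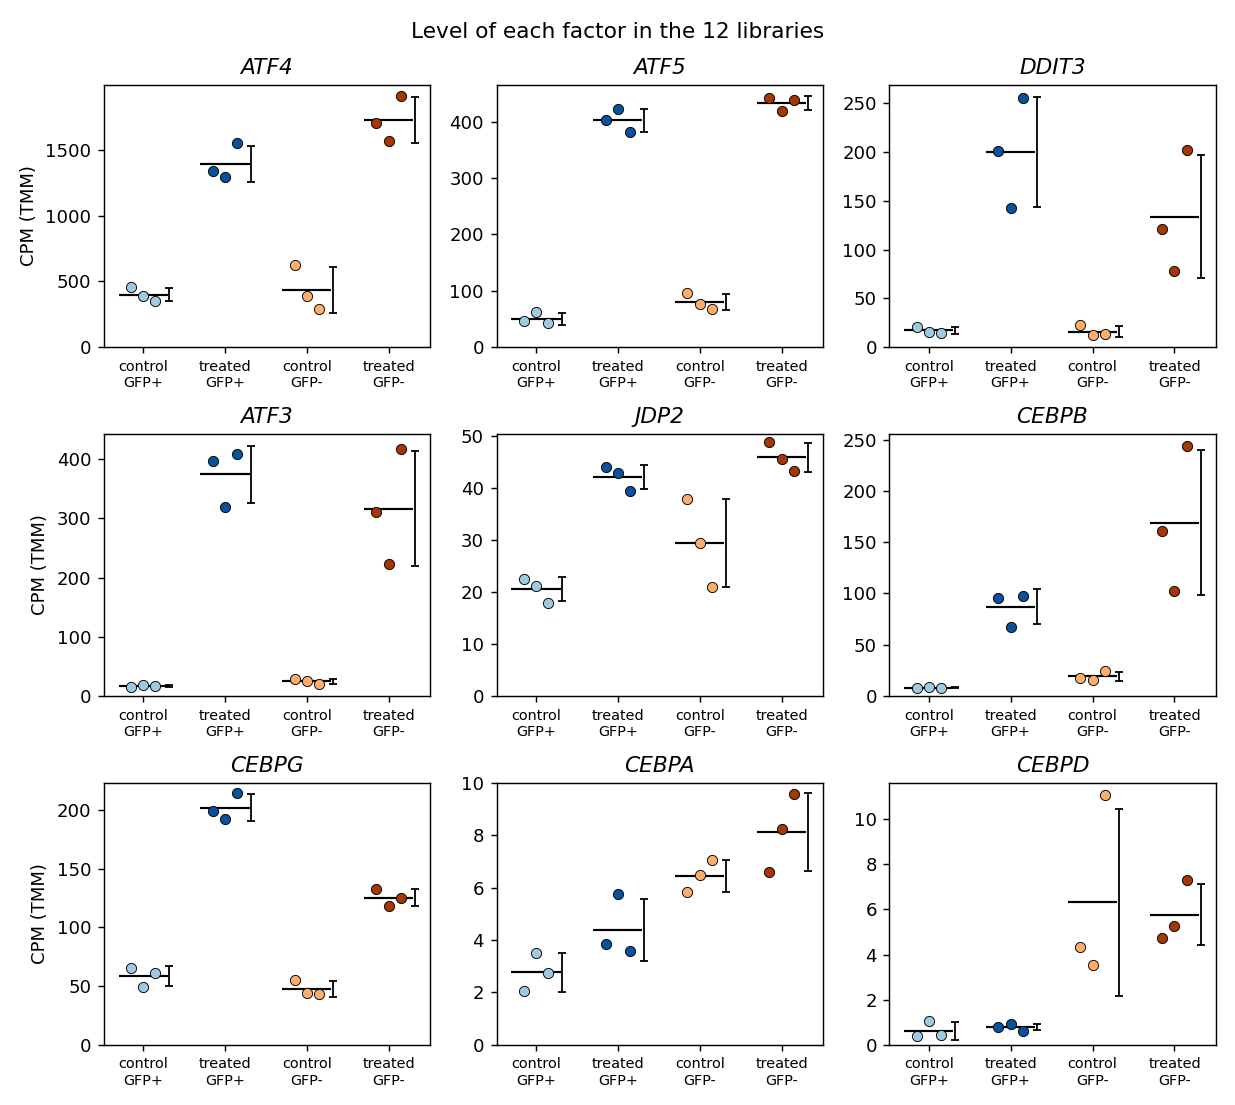
Level of each of the 9 factors in the 12 libraries. Each panel has its own linear axis of TMM-scaled CPM, points are libraries (3 per group, in replicate order), horizontal lines are group means and the bars beside them are ±1 SD. ATF3, ATF5, DDIT3 and CEBPB in treated libraries lie well above all controls in both sort fractions, and CEBPD separates the GFP-positive from the GFP-negative libraries.

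In GFP-negative cells, the cells of the same cultures without reporter signal, ATF3, CEBPB, DDIT3, ATF5, ATF4 and CEBPG rose, 6 of the 9, and all 6 were among the 7 that rose in GFP-positive cells. Of the 15513 genes tested here, 8.59% were called higher and 9.75% lower. Groups did not overlap for 7 of the 9 factors, against 46.6% of all genes, and the median log2 fold change of the 9 was 1.96, beside -0.01 over all genes. Without the control library that holds blood cell genes, the number of factors called was again 6. The treatment comparisons in the 2 sort fractions use separate libraries, although each pair of fractions was probably sorted from the same cultures.

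ATF3 was again the factor with the largest change, from 28.6, 25.6 and 20.4 CPM in control to 310, 222 and 418 CPM in treated GFP-negative libraries (log2 fold change 3.64 ± 0.26; edgeR adjusted p = 2.1e-05). CEBPB went from 17.8, 15.9 and 24.2 CPM to 161, 102 and 244 CPM (3.11 ± 0.31; adjusted p = 0.00013). The treated GFP-negative libraries spread widely for both genes, with the second replicate lowest and the third highest. DDIT3 spread in the same order, from 22.4, 12.2 and 12.9 CPM in control to 121, 78.3 and 202 CPM in treated libraries (3.05 ± 0.37; adjusted p = 0.00034). ATF5, by contrast, stood at 442, 420 and 438 CPM in treated GFP-negative libraries and at 95.4, 76.4 and 67.5 CPM in control (2.42 ± 0.17; adjusted p = 2.4e-05). Its treated SD of 12.0 CPM was smaller than the SD of 14.3 CPM among its controls.

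ATF4 was at 627, 393 and 289 CPM in control GFP-negative libraries and at 1707, 1568 and 1913 CPM after treatment (1.96 ± 0.26; edgeR adjusted p = 0.00054). CEBPG went from 55.3, 43.99 and 42.8 CPM to 132, 118 and 125 CPM (1.38 ± 0.16; adjusted p = 0.00031). JDP2 was at 37.9, 29.4 and 20.9 CPM in control and 48.9, 45.5 and 43.2 CPM in treated GFP-negative libraries. These JDP2 groups did not overlap, but the log2 fold change of 0.62 ± 0.22 did not pass (adjusted p = 0.058), with a 95% confidence interval of 0.12 to 1.11 that includes the 2-fold limit of 1. CEBPA was at 5.82, 6.49 and 7.05 CPM in control and 6.58, 8.23 and 9.58 CPM in treated libraries (0.31, 95% confidence interval -0.23 to 0.85; adjusted p = 0.36). CEBPD was at 4.34, 3.53 and 11.1 CPM in control and 4.73, 5.28 and 7.31 CPM in treated libraries (-0.15, interval -1.10 to 0.79; adjusted p = 0.81). The highest CEBPD value is that of the control library with blood cell genes, and without it the CEBPD change was positive, 0.53 (adjusted p = 0.18).

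**Figure D2:**
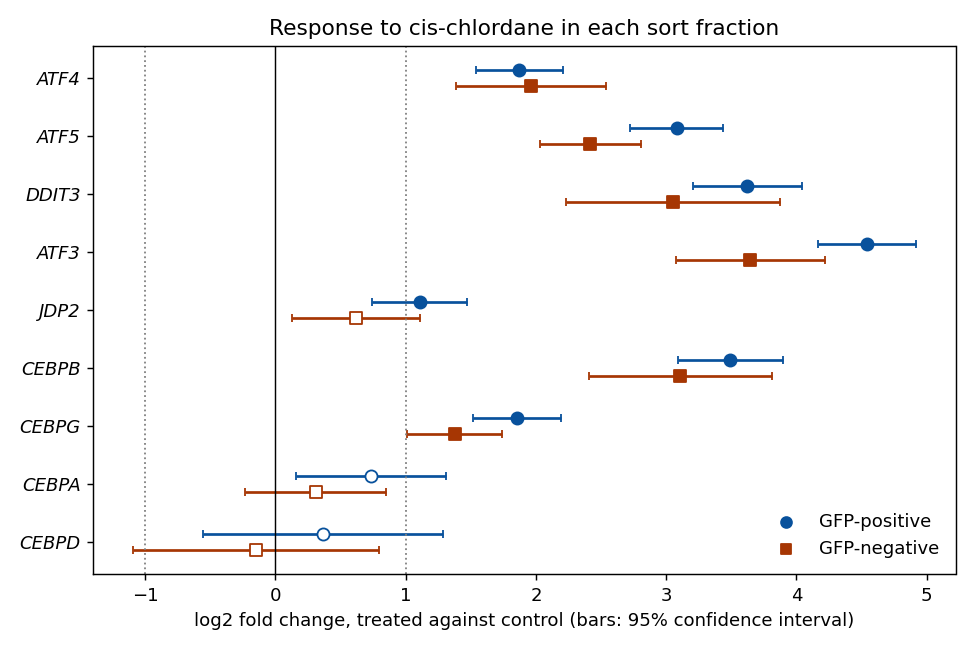
Log2 fold change of each factor after cis-chlordane in GFP-positive (circles) and GFP-negative cells (squares), from edgeR with 3 libraries per group. Bars are 95% confidence intervals, filled symbols were called (adjusted p under 0.05 and at least 2-fold, dotted lines), and the symbols of ATF3 sit farthest to the right in both fractions, at 4.54 and 3.64.

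The sort fractions were then compared without pesticide. CEBPD, CEBPB and CEBPA were lower in control GFP-positive than in control GFP-negative cells, 3 of the 9, while 15.3% of the 15404 genes tested were lower in GFP-positive cells. CEBPD differed most, by a log2 fold change of -3.44 ± 0.57 (edgeR adjusted p = 0.00093), from a mean of 6.32 CPM in GFP-negative to 0.622 CPM in GFP-positive libraries. CEBPB differed by -1.37 ± 0.22 (adjusted p = 0.00087) and CEBPA by -1.33 ± 0.27 (adjusted p = 0.0034). The highest CEBPD level, 11.1 CPM, was in replicate 3 of the control GFP-negative libraries, which holds the blood cell genes. Without that library the CEBPD difference was -2.71 (adjusted p = 2.1e-05). The remaining control GFP-negative libraries, at 4.34 and 3.53 CPM, still exceeded every control GFP-positive library. Without the second control GFP-positive library the CEBPD difference was -4.06 (adjusted p = 0.0035). Of the control GFP-negative libraries, replicate 3 was also the highest for CEBPB, at 24.2 CPM, and for CEBPA, at 7.05 CPM. With each control library left out in turn, CEBPB differed by -1.47 to -1.14 and CEBPA by -1.51 to -1.16. The number of factors called was 3 in each of these fits. The part of the blood cell genes in these differences was not tested further.

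ATF5 (-0.78), ATF3 (-0.67) and JDP2 (-0.62) were also lower on the log2 scale in control GFP-positive cells, with edgeR adjusted p of 0.0076, 0.016 and 0.044, but under the 2-fold limit. ATF4 (-0.23, 95% confidence interval -0.77 to 0.31), CEBPG (0.20, -0.18 to 0.58) and DDIT3 (0.00, -0.58 to 0.58) showed no difference past the test. Among treated cells, CEBPD alone of the 9 was called, lower in GFP-positive cells by a log2 fold change of -2.86 ± 0.29 (adjusted p = 7.6e-06), where 13.7% of 15416 genes were lower. Leaving out any of 5 of the 6 treated libraries added a second call. For CEBPB, the difference of -0.93 ± 0.25 (adjusted p = 0.0085) lay just under 2-fold and passed it without the second treated GFP-negative library (-1.18) or without replicate 1 (-1.03) or replicate 3 (-1.06) of the treated GFP-positive libraries. Without the second treated GFP-positive library the added call was CEBPA (-0.86 with all libraries and -1.13 without), and without replicate 3 of the treated GFP-negative libraries it was DDIT3, higher in GFP-positive cells (0.62 with all and 1.02 without). CEBPG was higher in treated GFP-positive cells by 0.71 ± 0.14 (adjusted p = 0.00089), its libraries apart at 192 to 215 against 118 to 132 CPM, but the 1.64-fold difference was under the limit.

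Whether the response itself differed between the sort fractions was tested by the interaction of treatment and fraction over all 12 libraries. None of the 9 factors was called at an adjusted p under 0.05 with edgeR or with DESeq2, while 2.19% of the 16226 genes tested were called with edgeR. At an unadjusted p under 0.05, edgeR gave 2 of the 9 and DESeq2 gave 3. ATF3 had the largest estimate, a response 0.81 larger on the log2 scale in GFP-positive cells (95% confidence interval 0.19 to 1.42; adjusted p = 0.17), followed by ATF5 at 0.58 (0.09 to 1.06; adjusted p = 0.21). These fits treat the 12 libraries as independent, although same-number libraries of the fractions are read as sorts of 1 culture. With a replicate block for that culture in edgeR, ATF3 was called (0.84, adjusted p = 0.024). The blocked fit called 1264 of all genes, against 355 without the block. With the GC trend also removed, it called 2 of the 9 factors. With library size alone as the scaling, ATF3 (1.08, adjusted p = 0.043) and ATF5 (0.84, adjusted p = 0.036) both were, but that scaling also moved the median of all genes by 0.26. The estimate was positive for 8 of the 9 factors and -0.18 for ATF4 (-0.81 to 0.46), beside a median of -0.05 over all genes. For CEBPB, the interval of -0.48 to 1.08 reaches just past a 2-fold difference.

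Because CEBPB, CEBPG, CEBPA and CEBPD share a DNA-binding domain and pair with each other, their transcripts were compared as levels per kilobase of exon. The sum over the 4 genes was 20.4 ± 1.17 CPM per kilobase in control and 99.3 ± 11.1 in treated GFP-positive cells, and 29.7 ± 5.26 and 131 ± 40.6 in control and treated GFP-negative cells (SD, n = 3 each). CEBPG made up 70.5% ± 6.25 of the sum in control GFP-positive cells and 50.3% ± 3.69 after treatment. CEBPB made up 21.7% ± 2.91 before and 47.3% ± 4.52 after, so that both genes had about equal shares in treated GFP-positive cells. In GFP-negative cells CEBPB went from 35.2% ± 2.00 to 68.8% ± 8.11, and CEBPG from 40.2% ± 9.06 to 25.1% ± 6.88. The lowest CEBPB share among treated libraries exceeded the highest among controls in each fraction, at 42.1% against 25.1% in GFP-positive and 60.5% against 37.3% in GFP-negative cells. CEBPA and CEBPD together made up a small part after treatment, 1.75% and 0.639% in GFP-positive and 2.52% and 3.65% in GFP-negative cells. These shares describe mRNA, and exon lengths were those of all annotated exons joined, so a gene expressed mostly as a short isoform would be understated. Nor were the shares corrected for GC content, which is 66.23% for CEBPB and 39.82% for CEBPG. With the GC trend removed, the log2 fold change in GFP-positive cells went from 3.49 to 3.99 for CEBPB and from 1.86 to 1.435 for CEBPG. How far the shares depend on GC content was not tested.

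**Figure D3:**
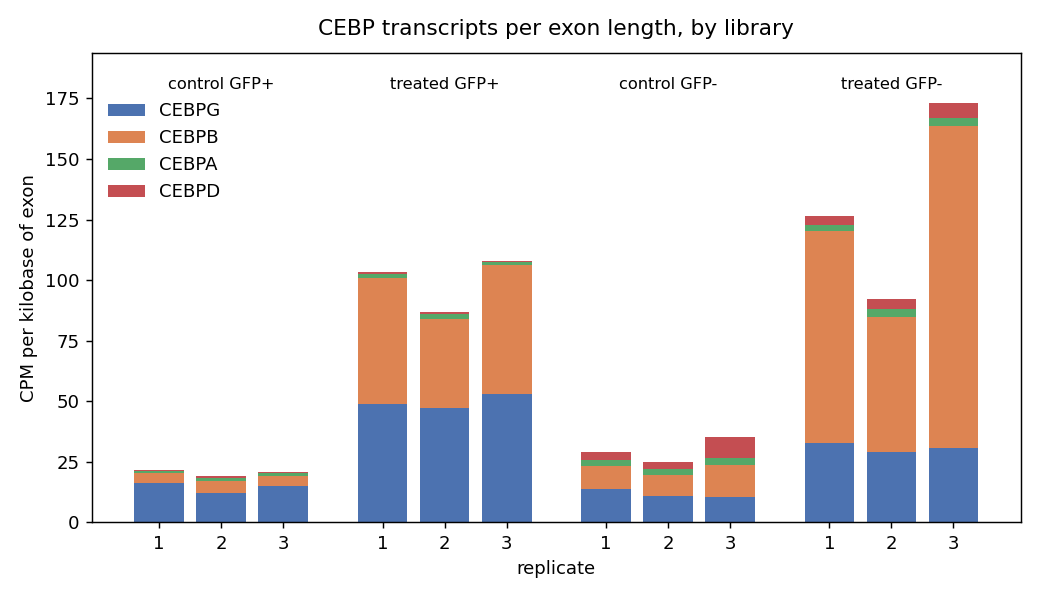
Summed transcript level of the 4 CEBP genes in each of the 12 libraries, as TMM-scaled CPM per kilobase of joined exons. The stacked bars show CEBPG, CEBPB, CEBPA and CEBPD from bottom to top; treated GFP-positive bars reach 86.8 to 108 and control GFP-positive bars 19.2 to 21.5, and the CEBPB segment is the larger one in treated GFP-negative libraries.

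Genes that ATF4 and CHOP are known to regulate rose almost throughout. Of 35 such genes, listed from general knowledge with earlier results of these data known, 33 were tested, and 31 rose in GFP-positive and 30 in GFP-negative cells, 29 of them in both. Of all genes tested, 12.8% were called higher in GFP-positive and 8.59% in GFP-negative cells. The median log2 fold change of the list was 2.08 in GFP-positive and 2.36 in GFP-negative cells. SLC7A11, the cystine transporter, changed most in GFP-positive cells (5.63 ± 0.25; edgeR adjusted p = 3.2e-19), from 0.709, 0.784 and 0.964 CPM to 46.9, 36.9 and 33.1 CPM. The hormone gene STC2 (4.49), SLC3A2 (3.78), which encodes the partner chain of SLC7A11, and the mitochondrial folate enzyme MTHFD2 (3.68) followed. In GFP-negative cells the leading gene was TRIB3, which feeds back on ATF4 and CHOP, from 44.8, 30.3 and 23.1 CPM to 695, 719 and 838 CPM (4.50 ± 0.26; adjusted p = 1.1e-05), before SLC7A11 (3.98), PCK2 (3.82), the mitochondrial PEP carboxykinase, and SLC3A2 (3.73). The exceptions were few. ALDH18A1 was under 2-fold in GFP-positive (0.74) and GFP-negative cells (0.57), PSPH was under it in GFP-positive cells (0.82), and ERO1A (0.69) and BCL2L11 (-0.48) were not called in GFP-negative cells.

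Upstream of the factors, 4 of 17 genes of eIF2alpha signalling rose, and they were the same 4 in both sort fractions. They were EIF2AK3 (PERK), the eIF2alpha kinase of the ER, with a log2 fold change of 2.58 ± 0.21 in GFP-positive and 2.10 ± 0.29 in GFP-negative cells, and DNAJC3 (2.85 and 1.56), the ER cochaperone also described as an inhibitor of PERK. The other pair, PPP1R15A (1.95 and 2.47) and PPP1R15B (1.44 and 1.17), encodes the GADD34 and CReP subunits that direct the phosphatase to eIF2alpha. PPP1R15A was at 347, 382 and 305 CPM in control and 1331, 1369 and 1095 CPM in treated GFP-positive libraries. Both an activating kinase and the subunits that reverse its action were thus among the risen transcripts, and the list's median was 0.42 in GFP-positive and 0.36 in GFP-negative cells. Among 10 genes that act on these factors after translation, TRIB3 rose in GFP-positive cells (3.48) and TRIB3 and TRIB1 (1.08) rose in GFP-negative cells. This is 1 and 2 of 10, near the 12.8% and 8.59% of all genes called higher there. TRIB3 and PPP1R15A also stand in the list of ATF4 and CHOP targets.

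Among the other bZIP factors, rises were more frequent than over all genes and falls were about as frequent. Of 41 tested, 18 rose and 5 fell in GFP-positive cells (median 0.81). In GFP-negative cells 15 rose and 4 fell (median 0.68), with 13 risen and 4 fallen in both. Of all genes tested, 12.8% were called higher and 11.2% lower in GFP-positive cells, and 8.59% and 9.75% in GFP-negative cells. The AP-1 subunits FOSL2 (4.24 ± 0.21; edgeR adjusted p = 7e-18) and FOSB (3.27) led in GFP-positive cells, followed by CREB5 (3.14) and XBP1 (2.64), the factor that the ER sensor IRE1 splices. In GFP-negative cells XBP1 (2.46) led, before the small Maf factor MAFF (2.31), CREB3 (1.80) and ATF6 (1.77), an ER membrane factor released by proteolysis. MAFA fell in GFP-positive (-3.43) and GFP-negative cells (-2.27), as did the circadian PAR factors TEF (-1.68 and -1.63) and DBP (-1.65 and -1.50). BATF2 fell in GFP-positive cells (-2.55), where it was at 1.83 to 3.98 CPM in control and 0.480 to 0.526 CPM in treated libraries.

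**Figure D4:**
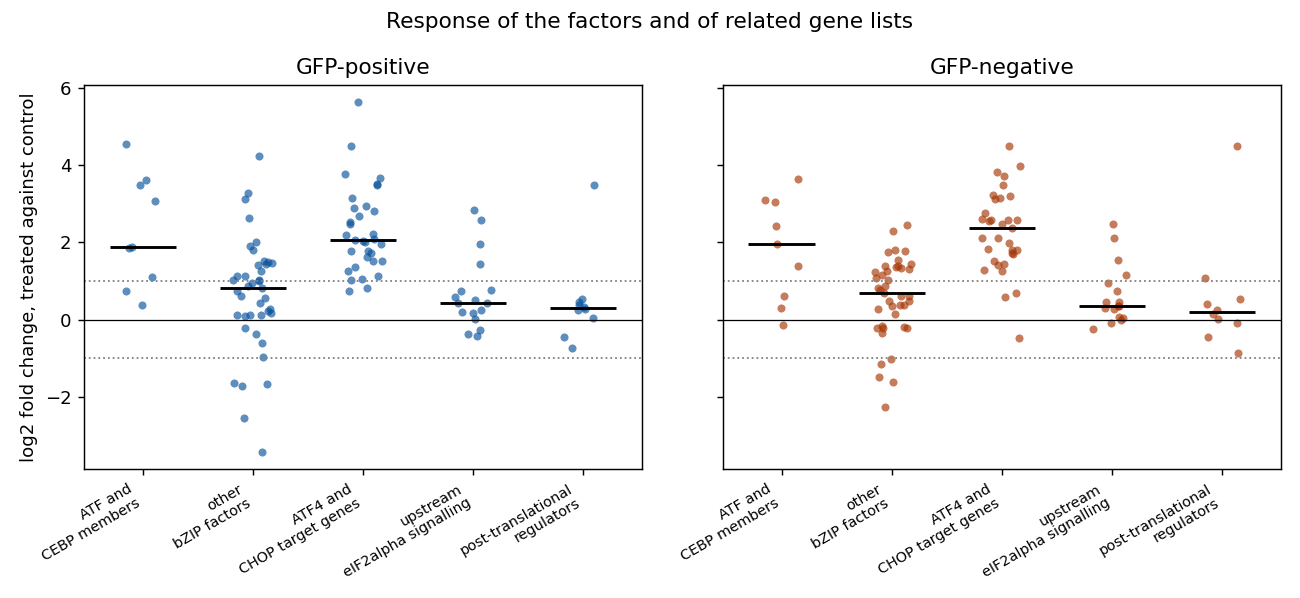
Log2 fold change after cis-chlordane of each tested gene of the 9 factors and of 4 related lists, in GFP-positive (left) and GFP-negative cells (right). Points are genes with a random sideways shift, black lines are list medians and dotted lines mark 2-fold; target genes of ATF4 and CHOP have medians of 2.08 and 2.36, and other bZIP factors spread from -3.43 to 4.24 in GFP-positive cells.

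For each factor, the 3 genes with the most similar course over the 12 libraries were found among 13810 genes, by the root mean square difference of log2 CPM after centring each gene on its own mean. ATF3 was nearest to STC2 (0.30), CLDN3 (0.34) and VEGFA (0.35), and ATF4 to SELENOS (0.14), SRPRB (0.21) and LONP1 (0.21). SELENOS encodes a selenoprotein of ER-associated degradation, and LONP1 a mitochondrial protease. ATF5 was nearest to MFSD2A (0.17), the death receptor gene TNFRSF10B (0.19) and the glycine transporter gene SLC6A9 (0.25), and DDIT3 to MTHFD2 (0.34), HERPUD1 (0.36) and PGM3 (0.37). CEBPB lay nearest to EEF1AKMT4 (0.30), BIRC7 (0.30) and HMOX1 (0.33), which encodes heme oxygenase 1. CEBPG lay nearest to RALA (0.15), TTC17 and EIF2A (both 0.18), and JDP2 to TIMM9 (0.10), TIMM44 (0.11) and ERP29 (0.14). CEBPA lay nearest to IMPDH2, IPO4 and ODC1 (0.22 to 0.23) and CEBPD to CASP8, GLIPR1 and CPVL (0.39 to 0.44). All genes share the same 12 libraries, so closeness here describes a pattern only. For CEBPD and its neighbours the course followed the sort fraction in part. None of these 4 genes was called for the treatment, and all were lower in control and treated GFP-positive cells. Each was also highest in replicate 3 of the control GFP-negative libraries, which holds the blood cell genes. There CEBPD was at 11.1, CASP8 at 6.41, GLIPR1 at 9.07 and CPVL at 10.9 CPM. The part of that library in the closeness was not tested. The nearest neighbours of JDP2 lay closer than those of any other factor, and those of CEBPD lay farthest. These differences were not scaled to how far each gene varied, so they do not rank the factors by how closely neighbours followed them.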

How the data were processed

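Whole-number counts per gene of 12 libraries were deposited by the authors in 1 table, and they were used as raw counts; 0 per-sample columns were left unused. Per the labels, poly(A) RNA was sequenced from stranded libraries and the submitters' processing notes name HISAT2, featureCounts and hg38 (GRCh38); the strand setting of the counting is not given in the sources used here. Libraries were assigned to treatments by the label's treatment field, because every title, also of the treated ones, opens with "untreated".

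Counts were tested with edgeR 4.0.16 (R 4.3.3): TMM scaling, filterByExpr (minimum count 10, minimum total 15), the quasi-likelihood F-test and Benjamini-Hochberg adjustment over all genes tested. A call needed at least a 2-fold change and an adjusted p under 0.05, and for the interaction the latter alone. Treatment was compared within each sort fraction and fractions within each treatment, from the groups compared only. An exact permutation test of 3 against 3 libraries cannot give a p under 0.1, so none was run. The treatment fit of GFP-positive cells and the interaction fit were also run on simulated counts, with the outcome not given here. The simulated libraries were independent, without shared cultures or a GC trend, so they do not bear on the fits that address these.

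CPM were computed after TMM scaling over all 12 libraries, and levels per kilobase used the joined exons of GENCODE 44, to which 25482 of 28278 symbols were matched. Alternatives were RLE scaling, library size alone, DESeq2 1.42.0, leaving out the filter, requiring 10 or more counts in each library, 1 fit of all 12 libraries, removal of the trend with GC content in each library (loess, span 0.5; GC content was known for 94.57% to 95.17% of tested genes), a replicate block, both together, and each library left out in turn. Libraries of a treatment and replicate number in the 2 sort fractions are read as sorts of 1 culture, as the protocol implies. After subtracting group means, same-number libraries of the fractions correlated over 16226 genes with r = 0.28, 0.085 and 0.21 (controls) and r = 0.16, 0.20 and 0.36 (treated cells).

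The 9 factors and the gene lists were chosen with earlier results of these data known. Genes named from a list are the 4 with the largest change in each direction among those called in each sort fraction; ALDH18A1, PSPH, ERO1A, BCL2L11, MARS1, NUP62, LHX3, KDR, CLDN5 and TEK were named after their values were seen, and a gene that the rule picks is not reported here. No replicate libraries agreed within sampling noise. Depth limits precision by counting error only, and 3 counts were taken as the limit of detection.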

Additional observations from a re-analysis of the deposited data

Results flagged for a closer look

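Of 100 genes tested from the 4 lists related to the 9 factors, 5 responded differently in the sort fractions by the interaction test of edgeR (adjusted p under 0.05). For all 5 the log2 fold change was more positive in GFP-positive cells. Of all 16226 genes, 2.19% were called. The difference in log2 fold change was 2.77 for FOSL2 (adjusted p = 8.2e-05), 1.57 for the cystine transporter gene SLC7A11 (adjusted p = 0.012) and 1.29 for STC2 (adjusted p = 0.015). FOSL2 was at 4.36, 4.24 and 5.30 CPM in control GFP-positive and a mean of 21.3 ± 3.50 CPM in control GFP-negative libraries (SD, n = 3), and at 63.5 to 102 against 49.7 to 60.3 CPM after treatment. It was called with each of the 12 libraries left out (2.63 to 2.93), and SLC7A11 (1.48 to 1.83) and STC2 (1.19 to 1.43) in 11 of 12. SLC7A11 had means of 0.819 CPM, from 19 to 30 counts, in control GFP-positive and 5.12 CPM in control GFP-negative libraries. After treatment it was at 39.0 and 81.9 CPM, still lower in GFP-positive cells. STC2 went from 9.34 to 200 CPM in GFP-positive and from 19.7 to 174 CPM in GFP-negative cells.

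BCL2L11, which encodes the cell death protein BIM, differed by 1.51 (adjusted p = 0.019). Its mean was 9.11 ± 1.26 CPM in control and 18.8 ± 3.60 CPM in treated GFP-positive cells, and 14.5 ± 1.04 and 10.6 ± 3.04 CPM in control and treated GFP-negative cells (SD, n = 3). It was called in 7 of the 12 fits that each leave out a library (1.37 to 1.80). CREB5 differed by 1.96 (adjusted p = 0.034) but was called in 3 of these 12 fits, with values of 1.31 to 2.32. Its control GFP-negative libraries were at 4.53, 6.85 and 15.4 CPM, the highest of them being the library with blood cell genes, and without that library the difference was 1.31 (adjusted p = 0.023). The part of that library's other cells in it was not tested. With the replicate block in edgeR all 5 genes were called, BCL2L11 at 1.54 (adjusted p = 0.0017) and CREB5 at 1.83 (adjusted p = 0.0024). That fit called 1264 of all genes, against 355 without the block.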

How the results depend on the processing

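The 45 differences of the 9 factors (5 comparisons) were recomputed in 720 alternative values; 684 kept their direction and side of the threshold, 13 passed a threshold they had missed and 23 changed sign, each of them a difference that was not called. For the treatment, 7 factors in GFP-positive and 6 in GFP-negative cells were called with each library left out; with the GC trend removed, CEBPA was the eighth in GFP-positive cells, alone (1.19) or with the replicate block (1.21). The sort comparison of treated cells called 1 to 2 factors with a library left out. The interaction called 2 factors with library size alone, 1 with the GC trend removed, 1 with the replicate block and 2 with both, and no factor with any library left out. Over all genes, the interaction called 355 (157 higher, 198 lower), against 789 with DESeq2, 1264 with the replicate block, 1130 with that block and the GC trend removed, and 141 to 414 with a library left out. Library size alone moved the split of its calls to 266 higher and 84 lower (RLE scaling, 171 and 145), and that of the sort comparison of treated cells from 1541 higher and 2117 lower to 2230 and 1770.

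Sign changes were as follows. With the GC trend removed, CEBPD after treatment of GFP-negative cells was 0.081, ATF4 between control fractions 0.055, and ATF4, ATF5 and JDP2 between treated fractions 0.022, 0.26 and 0.082. With the replicate block CEBPD was 0.005, and with the replicate block and the GC trend removed these 5 values were 0.30, 0.10, 0.016, 0.26 and 0.084. With library size alone ATF5 was 0.084 and JDP2 0.065 between treated fractions, and ATF4 0.063 in the interaction. With at least 10 counts in every library DDIT3 between control fractions was -0.015. With a library left out, the ranges were -0.44 to 0.53 for CEBPD in treated GFP-negative cells, -0.44 to 0.11 for ATF4 and -0.17 to 0.32 for DDIT3 between control fractions, and -0.51 to 0.045 for ATF4 and -0.26 to 1.13 for CEBPD in the interaction. The cause was not tested. Same-number treated and control libraries correlated with r = -0.02, 0.10 and 0.13 in GFP-positive cells and -0.05, 0.28 and 0.03 in GFP-negative cells. Libraries of unlike number gave -0.20 to 0.16. These values do not settle whether the numbers pair treated with control libraries. The block changed no other call of the 9. Depth limited only CEBPD, with 10 to 37 counts in GFP-positive libraries.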

Other observations

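The treated libraries held a common order for part of the factors. The second treated library was the lowest and the third the highest of its group in both sort fractions for ATF3, ATF4, DDIT3 and CEBPB, 4 of the 9, beside 8.46% of the 16226 genes tested. For CEBPG the second was also lowest in both fractions. ATF5, JDP2, CEBPA and CEBPD did not share that order: JDP2 was highest in the first treated library of each fraction, and for CEBPA and CEBPD replicate 3 was lowest and replicate 2 highest in GFP-positive cells, while replicate 1 was lowest and replicate 3 highest in GFP-negative cells.

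Marker lists of other cell types moved with the treatment, and their part in the levels of the factors was not tested. In GFP-positive cells edgeR called 3 of 8 neuronal and 3 of 7 proliferation genes lower, and all 3 tested mesenchymal genes, while both tested myeloid genes, CD68 and CD14, were higher. Of all genes, 11.2% were called lower and 12.8% higher there, and these lists are short. CD68, at 12.2 to 16.8 CPM, made up most of the summed myeloid markers in treated GFP-positive libraries (14.5 to 20.5 CPM, against 1.99 to 3.65 in control), and the defining genes PTPRC, SPI1, CSF1R, TYROBP, LYZ and AIF1 were at 0 to 0.45 CPM. In GFP-negative cells 5 of 9 neural progenitor and 6 of 7 proliferation genes were lower, and of 5 endothelial markers 1 was higher and 2 were lower. Of all genes, 9.75% were called lower and 8.59% higher there. KDR rose from 9.39 ± 0.687 to 102 ± 21.9 CPM, while CLDN5 fell from 10.8 ± 2.81 to 1.70 ± 0.499 CPM and TEK from 0.841 ± 0.201 to 0.174 ± 0.0645 CPM (SD, n = 3).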
